A study of Mus musculus with 6 samples.

Results

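The genes described here encode the proteins of the cytosolic ribosome, whose mRNAs were sequenced here from mouse marrow cells gated as long-term haematopoietic stem cells. They were taken as the protein-coding rows of the deposited table whose symbol is Rpsa or consists of Rpl, Rps or Rplp, a number and at most 1 of the letters a, x, y or l with an optional further number. This gave 83 genes of 53465 in the table: 46 core genes of the large subunit (Rpl), 31 core genes of the small subunit (Rps and Rpsa) and 6 paralogs, whose symbols end in l or in l and a number (Rpl3l, Rpl7l1, Rpl10l, Rpl22l1, Rpl39l and Rps27l). Fau and Rpl36al, which also encode ribosomal proteins, fall outside these symbols and are given separately. All 6 libraries came from wild-type mice that had received 5.0 Gy of total body irradiation. Afterwards 3 had been treated with saline and 3 with carnosine, a natural dipeptide that contains histidine, so the saline group was irradiated too and there was no unirradiated group. The sort kept lineage-negative cells with Sca-1 and c-Kit and without Flk2 and CD34. The labels do not tell whether each library stands for its own mouse. The p-values therefore reflect library-to-library spread alone, and that may be technical.

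A cytosolic ribosome joins a small subunit, which reads the mRNA, to a large subunit, which forms peptide bonds, and each core protein is needed in a fixed number of copies per particle. The mRNAs of these proteins typically begin with a run of pyrimidines, the terminal oligopyrimidine (TOP) tract, through which the mTOR pathway and Larp1 set their translation and stability together. Blood formation is known for its sensitivity to the dose of these proteins: loss of a single copy of one of several of them causes Diamond-Blackfan anaemia, and free Rpl5 and Rpl11 bind MDM2 and raise p53. In stem cells the rate of protein synthesis is kept low.

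The stretch around the transcription start was searched for sequence that some of these genes share. RefSeq promoter windows (GRCm38.p6, from 250 bases before to 50 bases after an annotated start) were at hand for 63 of the 83 genes, with 75 windows. A C followed by at least 6 bases that are each C or T, on the gene's own strand and within 15 bases of the start, lay in 33 of the 75 windows (44.0%) and in 14.2% of all 32851 windows. Among core genes it was present for 25 of the 43 called lower with carnosine and for 4 of the 14 that were not called, a count that was not tested. The ETS-type motif CCGGAAGT, on either strand of the 300 bases, was in 16.0% of the windows against 3.89% of all windows, and the YY1-type motif GCCATNTT in 22.7% against 6.05%. CCGGAAGT was present for 10 of the 43 core genes called lower and for 1 of the 14 not called. For GCCATNTT it was 6 of the 43 and 5 of the 14, so the motifs did not all go the same way with the calls. These counts were not tested either. These motifs were picked after the windows were seen, and a match is a description, not a binding site. The 8 windows of 30 bases printed here are each centred on an annotated start. They are those of 3 large and 3 small subunit genes that fell, and of Rps27 with its paralog Rps27l, which were not called. The genes that fell were picked from the called genes that have the pyrimidine run defined above. The windows therefore do not show how common that run is. Capitals mark each run that meets the definition above, and the annotated start is base 16.
Rpl35 (chr2:39005117-39005146, minus strand): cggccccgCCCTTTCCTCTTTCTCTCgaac
Rpl18 (chr7:45718056-45718085, plus strand): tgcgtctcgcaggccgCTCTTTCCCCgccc
Rpl4 (chr9:64173372-64173401, plus strand): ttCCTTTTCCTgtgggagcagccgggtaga
Rps24 (chr14:24490663-24490692, plus strand): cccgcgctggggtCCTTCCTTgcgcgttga
Rps15a (chr7:118116133-118116162, minus strand): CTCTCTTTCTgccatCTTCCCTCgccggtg
Rps26 (chr10:128626492-128626521, minus strand): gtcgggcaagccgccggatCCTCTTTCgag
Rps27 (chr3:90213634-90213663, minus strand): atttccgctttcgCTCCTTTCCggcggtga
Rps27l (chr9:66946071-66946100, plus strand): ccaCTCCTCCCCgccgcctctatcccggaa
The tract of Rpl35 spans 18 bases and crosses the annotated start, while those of Rpl4 and Rps27l end before it. Rps15a has 2 tracts, of which 1 ends before the start and 1 begins at it.

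Libraries held 12602067 to 16866534 counts with saline and 12730837 to 13651553 with carnosine. Marker transcripts of several cell types moved with the groups. The summed level of 8 markers of long-term stem cells was 145 to 165 CPM (counts per 1e6 counts, scaled by edgeR's TMM factors) in the saline libraries and 113 to 119 in the carnosine libraries, and 4 of the 7 tested fell. Of the 4 genes of the sort gate, Kit rose (log2 fold change 0.20 ± 0.0284, SE) and Flt3, which encodes Flk2, fell (-0.22 ± 0.0351), while Cd34 (-0.13; adjusted p = 0.050164, edgeR) and Ly6a (-0.058; adjusted p = 0.88) did not pass. Mean levels with saline and carnosine were 330 and 378 CPM for Kit and 30.2 and 29.2 CPM for Ly6a, both gated for. Those gated against were at 210 and 180 CPM (Flt3) and at 328.5 and 301 CPM (Cd34). The summed level of the 4 genes, 872 to 925 and 874 to 899.5 CPM, mixes genes gated for and against. Over 5 markers of myeloid progenitors it was 3735 to 3761 and 7719.6 to 7972 CPM, over 5 megakaryocyte markers 341 to 367 and 139 to 146 CPM, and over 5 erythroid markers 416 to 417 and 551 to 572 CPM. All 5 myeloid progenitor markers rose and all 5 megakaryocyte markers fell, while 4 erythroid markers rose and 1 fell. The 5 B and plasma cell markers spanned 340.3 to 352 and 313 to 614 CPM, the 4 T and NK cell markers 83.4 to 85.9 and 119.9 to 128 CPM, and the 5 stroma markers 121 to 129 and 107 to 112 CPM. Of those tested, 1 of 5, 3 of 3 and 0 of 3 rose, and 0, 0 and 2 fell. A single gene made up most of each of these sums. Jchain, of the B and plasma cell list, was at 584, 576 and 281 CPM in the carnosine libraries. Nkg7, of the T and NK cell list, had means of 81.5 CPM with saline and 114 with carnosine. Pecam1, of the stroma list, had means of 98.6 and 88.2 CPM. None of the markers in the lists was at 0 in every library, and the part of these shifts in the results that follow was not tested. In such bulk samples, fewer cells of a type and less RNA per cell cannot be told apart.

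Ribosomal protein transcripts of both subunits were lower in the carnosine libraries. Of the 81 genes that could be tested, 61 fell, 0 rose and 20 did not pass (edgeR's quasi-likelihood F-test, p adjusted by Benjamini-Hochberg over all 15533 genes tested, threshold 0.05). Of all tested genes, 19.8% were called lower and 19.6% higher. The median log2 fold change of carnosine over saline was -0.27 for the ribosomal protein genes, a fall of 17.2%, against -5.03e-05 for all tested genes. Every called change was under 2-fold. The fold was below 0 for 78 of the 81 genes, where 50% of all tested genes lay below 0. In 63 of the 81, every carnosine library was below every saline library, and in 0 every one was above. Of all tested genes 26.1% were separated downwards and 26.2% upwards. Rps12, Rpl26 and Rps27l, named for having a fold above 0, had adjusted p-values of 0.25, 0.73 and 0.59 (edgeR). So 0 genes rose at an unadjusted p under 0.05 as well, and DESeq2 and limma-voom called 0 higher. Without a scaling for composition (total counts alone), 54 of the 81 were called lower and 0 higher, and 6 had a fold above 0. Over all genes the calls shifted to 2501 lower and 3900 higher from 3077 and 3038.

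**Figure D1:**
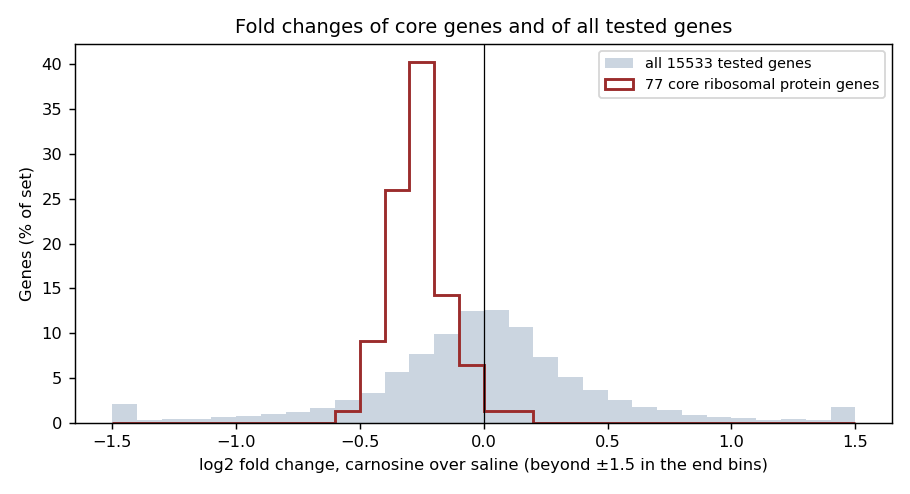
Log2 fold change of carnosine over saline (x axis) for all 15533 tested genes (grey-blue bars) and for the 77 core ribosomal protein genes (red outline), each as a percent of its set (y axis). The core genes gather below 0 around a median of -0.27, while all tested genes centre on 0.

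The share of each library's counts that fell in these 83 genes was 2.96, 3.01 and 2.97% in the saline libraries and 2.58, 2.59 and 2.59% in the carnosine libraries. The groups did not overlap, and their means were 2.98 ± 0.0246% and 2.59 ± 0.00792% (SD, n = 3 each). Large subunit genes went from 1.66 ± 0.0190% to 1.46 ± 0.00476% and small subunit genes from 1.31 ± 0.00631% to 1.13 ± 0.0125% of counts. The ratio of large to small subunit counts was 1.26, 1.28 and 1.26 with saline and 1.31, 1.29 and 1.28 with carnosine, ranges that overlap. No p is given for these sums. Mitochondrially encoded transcripts were lower as well, at 5.16 ± 0.0162% and 4.64 ± 0.0188% of counts (SD, n = 3 each).

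**Figure D2:**
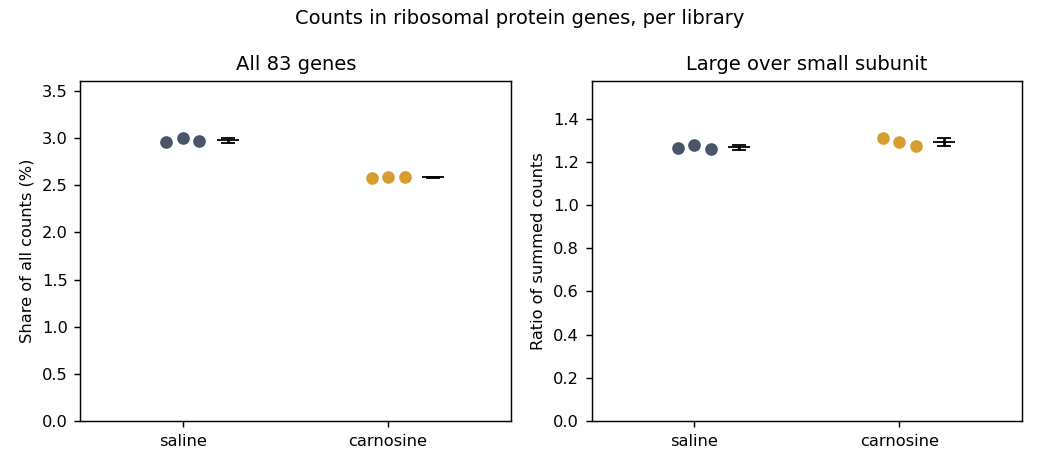
Percent of each library's counts in the 83 ribosomal protein genes (left) and ratio of large to small subunit counts (right), 1 point per library, with the group mean and SD as a bar beside the points. The 3 carnosine libraries lie between 2.58 and 2.59%, under the 2.96 to 3.01% of the saline libraries, while the ratios overlap.

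Among the 46 core genes of the large subunit, 37 fell and 9 did not pass, with a median log2 fold change of -0.28 and a range from -0.49 to 0.060. Rpl10a, part of the mobile stalk beside the exit site for tRNA, had the smallest p-value of the subunit (chromosome 17, 28328471 to 28331032, GRCm38 as given in the deposited table). Its levels were 613, 610.2 and 612 CPM with saline and 488, 501 and 490.04 CPM with carnosine. The groups did not overlap, and the log2 fold change was -0.31 ± 0.0208 (SE; adjusted p = 4e-05, edgeR). Rpl35, which sits by the opening of the exit tunnel for new peptides, was at 355, 357 and 372 CPM with saline against 288, 284 and 278.5 CPM with carnosine, a log2 fold change of -0.35 ± 0.0280 (SE). Rpl4, whose loop lines that tunnel, was the gene with the most counts of the subunit. It had 3106, 3157 and 2967 CPM with saline and 2561, 2504 and 2519.9 CPM with carnosine, again without overlap, and fell by 17.8%. Rpl30, Rpl18 and Rpl14 completed the 6 smallest p-values of the subunit, with log2 fold changes of -0.31, -0.30 and -0.26. The steepest falls of the subunit were those of Rpl23a (-0.49 ± 0.0541, SE) and Rpl36 (-0.49 ± 0.0932), both named after looking at the values.

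The stalk proteins, which recruit the elongation factors to the large subunit, all fell. Rplp1 was at 1096, 1048 and 1085 CPM with saline and 905, 911 and 849 CPM with carnosine, and Rplp2 at 337, 323 and 326 against 281, 279.5 and 277 CPM. Both were lower in every carnosine library, by -0.28 ± 0.0333 and -0.24 ± 0.0254 on the log2 scale (SE). Rplp0, the base to which they bind, had a smaller fold: 1949.7, 2061 and 2044 CPM became 1843, 1853 and 1856 CPM, a log2 fold change of -0.13 ± 0.0251 (SE). With total count scaling Rplp0 did not pass (adjusted p = 0.067, edgeR), nor on the FPKM scales (0.078 and 0.077, limma). Whether the folds of the 3 stalk genes differ was not tested.

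Among the 31 core genes of the small subunit, 23 fell and 8 did not pass, with a median of -0.27 and a range from -0.53 to 0.12. Rps24, needed for the processing of small subunit rRNA, had the smallest p-value of all 83 genes (chromosome 14, 24487125 to 24496959). Its levels were 365, 378 and 375 CPM with saline and 273, 276 and 259 CPM with carnosine. It fell by 27.7%, a log2 fold change of -0.47 ± 0.0311 (SE; adjusted p = 3.9e-05, edgeR). Rps4x, an X-linked gene, was at 907, 920.1 and 906 CPM with saline and 733, 727 and 762 CPM with carnosine, changing by -0.30 ± 0.0242 (log2, SE). The groups did not overlap. Rps15a and Rps19, the latter being the gene most often mutated in Diamond-Blackfan anaemia, followed with -0.30 and -0.27. Rps15, a protein of the subunit's head, fell by 24.8% on average, but its carnosine libraries lay apart at 611, 524 and 655 CPM, against 785, 798 and 797 CPM with saline. Rpsa, which is also known as a laminin receptor, fell by 12.1%. Rps6, the classic substrate of the S6 kinases, named here with its values in view, was at 303, 334 and 308 CPM with saline and 254, 241 and 236 CPM with carnosine.

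**Figure D3:**
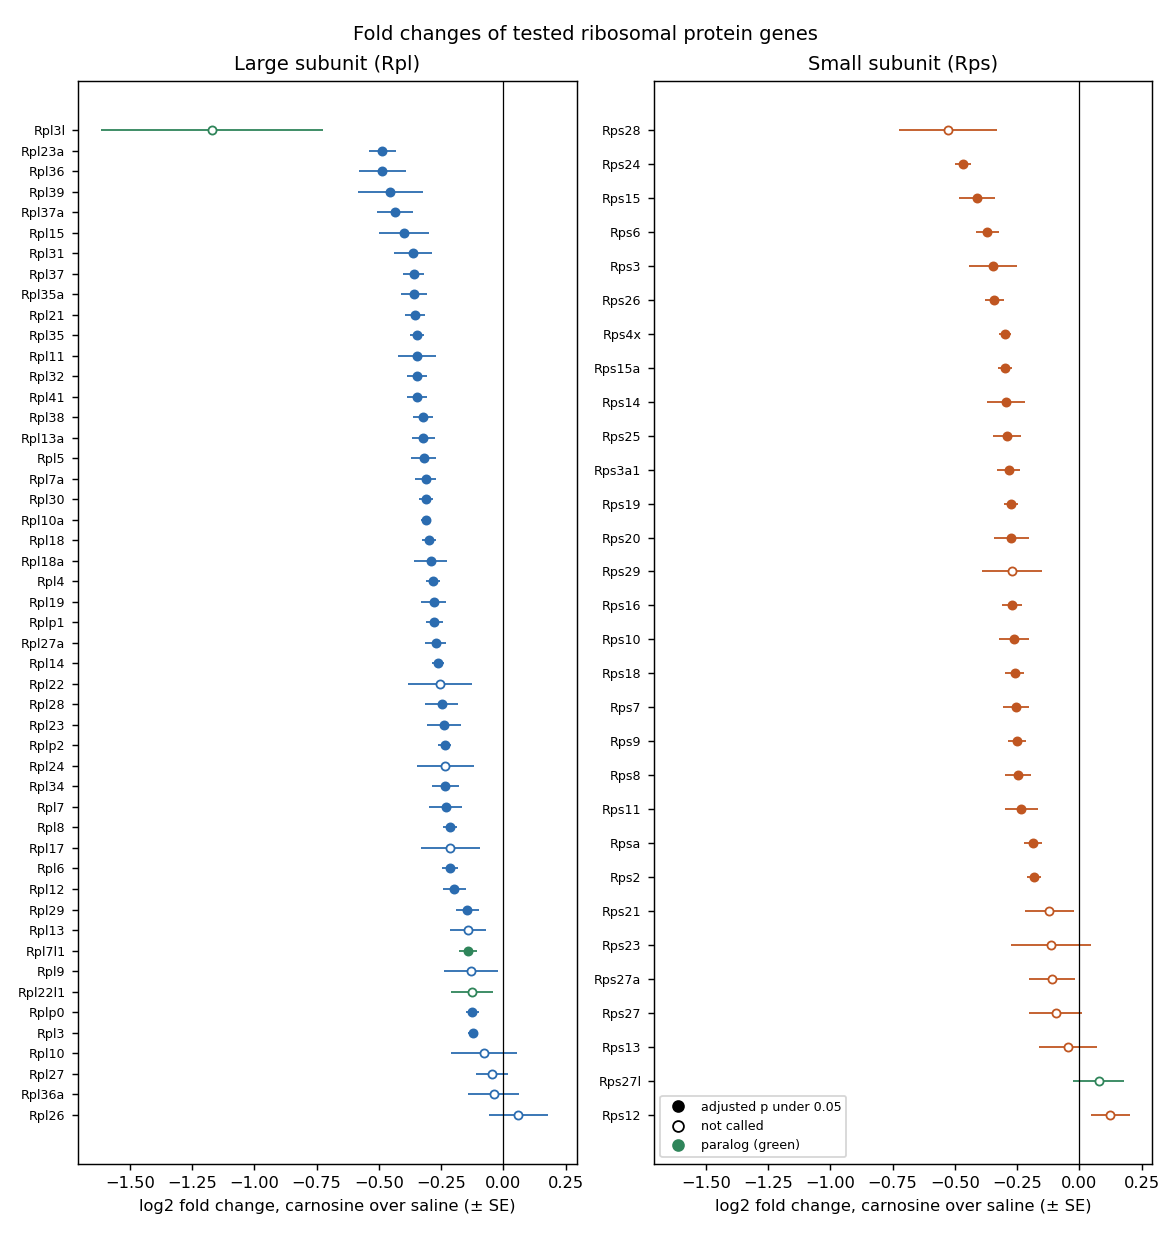
Log2 fold change of carnosine over saline with its standard error (x axis) for 79 of the 81 tested genes (rows), large subunit on the left in blue, small subunit on the right in dark orange, paralogs in green. Filled points passed the test, and all of these lie below 0; open points did not pass.

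Of the 17 core genes that did not pass, 15 also had folds below 0. Rps28 had the lowest fold of all core genes, -0.53 ± 0.197 (SE), yet missed the threshold (adjusted p = 0.071, edgeR). Its levels of 34.5, 24.9 and 36.7 CPM with saline overlapped those of 27.5, 21.6 and 17.5 CPM with carnosine. Rpl22 was at 191, 274 and 202 against 184, 179.6 and 195 CPM (adjusted p = 0.16). A single saline library lay high for it, and the groups overlapped. Rpl26 was at 209, 201 and 201 CPM with saline and 238, 168 and 231 CPM with carnosine, with 1 carnosine library below and 2 above all saline libraries. Without carnosine replicate 2 it was the only one of the 81 genes to be called higher (0.20, adjusted p = 0.0061, edgeR). Rps12 was at 36.1, 37.0 and 39.2 against 38.0, 45.3 and 39.2 CPM. These 4 were picked with their values in view.

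Of the 4 paralogs tested, only Rpl7l1 passed. Rpl7l1, a relative of Rpl7 linked to large subunit assembly (chromosome 17, 46773907 to 46782656), was at 125, 125 and 134 CPM with saline and 116, 115 and 116 CPM with carnosine. It fell by 9.33% (log2 fold change -0.14 ± 0.0371, SE; adjusted p = 0.021, edgeR), and the groups did not overlap. The call was lost with total count scaling (adjusted p = 0.11, edgeR), in DESeq2 (0.11), on the FPKM scales (0.10 and 0.10, limma) and without carnosine replicate 2 (0.060) or 3 (0.056). Rpl22l1, which Rpl22 is known to repress, was at 22.2, 22.9 and 23.9 against 20.6, 23.4 and 19.2 CPM and did not pass (adjusted p = 0.28). Rps27l, a known p53 target (chromosome 9, 66946086 to 66949516), was at 68.7, 54.4 and 58.6 against 57.4, 67.3 and 67.2 CPM. Its groups overlapped and it did not pass (log2 fold change 0.077 ± 0.101, SE; adjusted p = 0.59, edgeR). Rpl3l, a form of Rpl3 known from striated muscle, had 13, 12 and 12 counts with saline and 4, 9 and 2 with carnosine. It entered the test through its saline counts and missed the threshold (log2 fold change -1.17 ± 0.446, SE; adjusted p = 0.075, edgeR). Without carnosine replicate 2 it was at -1.87 and passed (adjusted p = 0.020, edgeR). The testis-type genes Rpl39l and Rpl10l were not tested: Rpl39l had 13, 0 and 5 counts against 1, 0 and 0. Rpl10l had 0 counts in all 6 libraries, which allows up to 0.182 to 0.244 CPM per library by counting error alone. Over the 4 tested paralogs 1 fell and 0 rose, with a median of -0.13, against 60 of 77 core genes and a median of -0.27, and against 19.8% of all tested genes called lower. With so few paralogs, no difference between the sets was tested.

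For 3 paralogs the gene they are named after had at least 10 counts in every library too, so the ratio of both could be followed (deposited FPKM, fragments per kilobase of gene per 1e6 counts). Rpl7l1 stood at 25.9% of Rpl7 with saline and 27.6% with carnosine, and Rpl22l1 at 14.9% and 16.0% of Rpl22. These shares depend on the gene length behind FPKM. Per kilobase of the principal mRNA in GENCODE M21, Rpl7l1 had 46.8 CPM and Rpl7 747 (mean of 6 libraries). By that measure Rpl22l1 had 39.9 CPM and Rpl22 99.5. The log2 ratios differed by 0.092 for Rpl7l1 (-1.95 ± 0.10 and -1.86 ± 0.122, SD, n = 3 each; exact two-sided permutation p = 0.40) and 0.11 for Rpl22l1 (-2.75 ± 0.283 and -2.64 ± 0.199; exact permutation p = 0.70). For Rps27l over Rps27 the log2 ratio was 3.8 ± 0.258 and 3.98 ± 0.223 (SD, n = 3 each; exact permutation p = 0.20). The smallest p that 3 against 3 libraries allow is 0.10, and adjusted over the 3 pairs the values were 0.60, 0.70 and 0.60. None of the 3 differences passed, and Rps27 has little sequence of its own, so its ratio is uncertain. Without saline replicate 2 the difference for Rpl22l1 turned to -0.058.

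**Figure D4:**
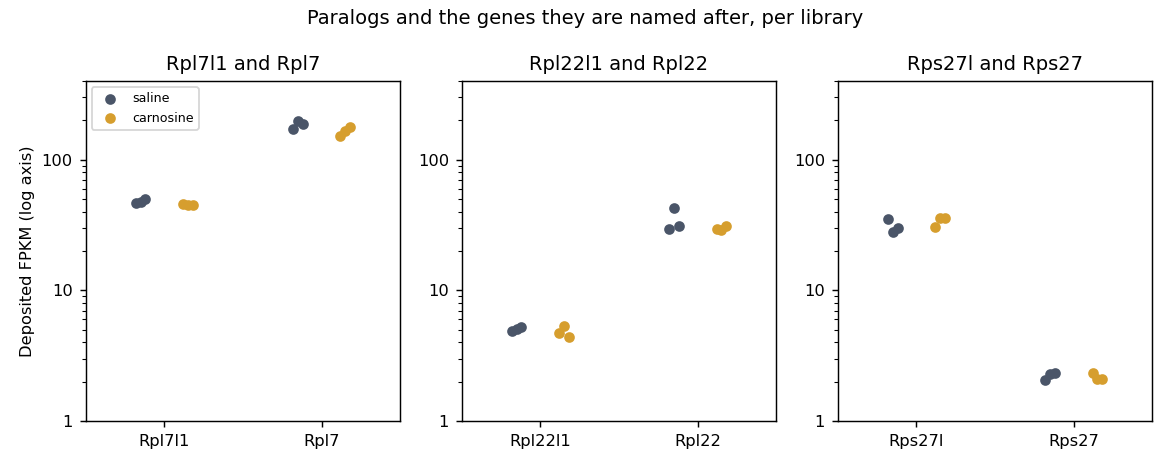
Deposited FPKM (log axis) of 3 paralogs and of the genes they are named after, 1 point per library, saline in dark grey and carnosine in yellow. Rpl7l1 and Rpl22l1 lie under Rpl7 and Rpl22 in every library, while Rps27l lies above Rps27.

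Levels differed far more between genes than between groups. Per length of gene (deposited FPKM, mean of 6 libraries), the 77 core genes ran from 1.29 to 1961 with a median of 56.0. The highest were Rplp1 (1961), Rpl8 (1308, a protein near the peptidyl transferase centre), Rpl4 (1069), Rps3a1 (955), Rps15 (826), Rplp0 (687) and Rpl32 (582). Rpsa (429) and Rps4x (381) came next, Rpsa being the third of the small subunit. At the other end lay Rpl37a (7.52), Rps23 (7.44), Rpl36a (5.42), Rps27 (2.20), Rpl9 (1.90) and Rps13 (1.29). Median FPKM was 55.0 with saline and 45.3 with carnosine over large subunit genes, and 69.97 and 61.05 over small subunit genes. In this order, 19 of the 76 neighbouring pairs were separated in both groups of libraries, among them Rplp1 over Rpl8 and Rpl8 over Rpl4. The other 57, such as Rps15 and Rplp0, overlapped in at least 1 group. Such a separation is between libraries and takes the gene length behind FPKM as given.

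The gene length behind these FPKM values was 404 to 11869 bases with a median of 3042, against 345 to 5179 bases with a median of 886 for the principal mRNAs of GENCODE M21. Dividing CPM by the mRNA length instead gave 14.0 to 1968 CPM per kilobase and a like order (Spearman's rho 0.93 over 77 genes, which share their libraries). Places of single genes still depended on the length: Rpl4 (1822) then lay above Rpl8 (1108). Many of these mRNAs also have near-identical processed copies elsewhere in the genome. The share of each mRNA whose stretches of 75 bases occur in no other annotated gene was 1.48% for Rps27 and 100% for Rps3, with a median of 55.4%. Rps27, Rpl9, Rpl36a and Rps13, the 4 lowest genes by FPKM, had 1.48, 8.74, 15.4 and 21.4% of unique sequence. Per kilobase of mRNA the lowest were Rps23 (14.0 CPM) and Rpl17 (16.5), with 49.7 and 56.4%. Rpl35 and Rpl10a, with only 10.8 and 12.4%, had an FPKM of 189 and 120. Rpl8 and Rpl4 had 96.0 and 91.5%, but Rplp1 only 54.1%. Across the 77 genes the share went with log2 FPKM (Spearman's rho 0.26), a weak relation. The sources used here do not give how reads that fit several copies were counted, so levels of genes with little unique sequence are uncertain.

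**Figure D5:**
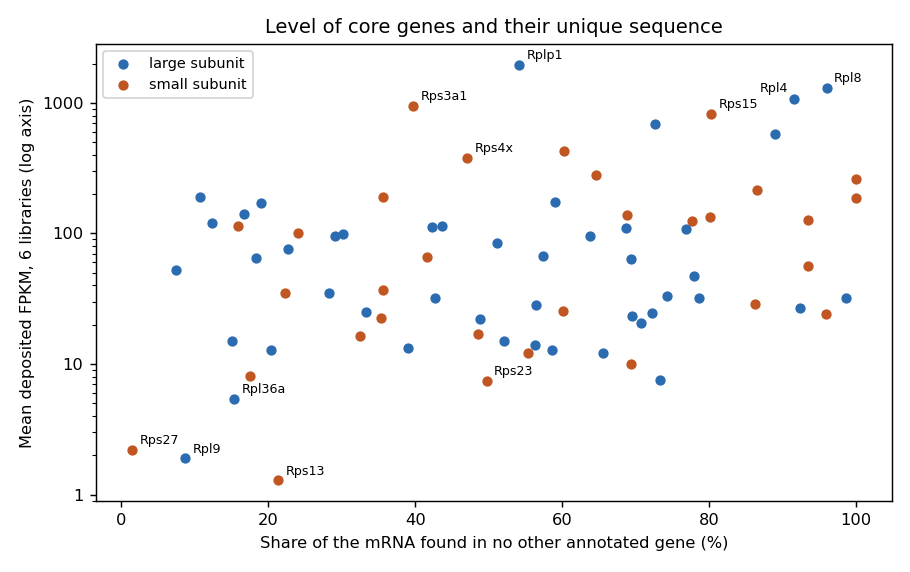
Mean deposited FPKM of the 77 core genes (y axis, log) against the percent of the mRNA found in no other annotated gene (x axis), large subunit in blue and small subunit in dark orange. Rps27, Rpl9, Rps13 and Rpl36a combine the lowest FPKM values with little unique sequence, while other genes with little unique sequence lie higher.

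Falls were also counted by the share of unique sequence. The counts in this paragraph stand beside the 19.8% of all tested genes called lower and the 19.6% called higher. Of the 23 core genes with at least 70% unique sequence 21 fell and 0 rose, with a median log2 fold change of -0.30. In the 35 genes between 30 and 70% it was 28 and a median of -0.27, and in the 19 genes under 30% it was 11 and -0.26. Rps3, whose mRNA holds no shared stretch, had a log2 fold change of -0.35 ± 0.0971 (SE). The rows of named processed pseudogenes, which can take up such reads, held 1.83 ± 0.00893% of counts with saline and 1.54 ± 0.0100% with carnosine (SD, n = 3 each). Of the 126 such rows tested, 85 fell and 0 rose, with a median of -0.35. Within the core genes, the fold went weakly with the share of unique sequence (Spearman's rho -0.23) and with log2 FPKM (-0.18). It went hardly with mRNA length (0.012) or GC content (0.068). The 30 genes with a small nucleolar RNA gene inside them had 25 falls and a median of -0.27, the 47 without one 35 and -0.28. The 77 genes lie on 19 chromosomes. Of them 18 overlap another protein-coding gene, and 15 of these fell; the sources used here do not give whether counting used the strand.

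Genes tied to Diamond-Blackfan anaemia and related marrow failure fell in 16 of 21 cases and rose in 0, with a median of -0.30. The 5 that did not pass were Rps27, Rps28, Rps29, Rpl26 and Rpl27. Rps26, by the mRNA exit channel, fell by 21.1%, from 305, 318 and 335 CPM to 248, 258 and 250 CPM. Of 17 ribosomal proteins known to bind MDM2, 13 fell and 0 rose (median -0.28). Rpl5 was at 302, 325 and 303 CPM with saline and 259, 256 and 231 CPM with carnosine, and Rpl11 at 64.1, 73.9 and 64.5 against 54.6, 55.9 and 48.7 CPM. Both were lower in every carnosine library, while Rps27l, also in that list, was not. Rpl37 in the same list had a log2 fold change of -0.36, and Rpl6 one of -0.21. Both lists overlap and consist of members, so they add no separate evidence.

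Other translation genes were described by list, with no test between lists. The counts stand beside the 19.6% of all tested genes called higher and the 19.8% called lower. Among ribosomal genes outside the symbol rule, Fau, which encodes a ribosomal protein fused to a relative of ubiquitin, fell (log2 fold change -0.13 ± 0.0279, SE). Fau did not pass with total counts (adjusted p = 0.064, edgeR) or with a GC and length offset (0.15), nor on the FPKM scales (0.053 and 0.053, limma). Rpl36al (-0.096) and Rack1 did not pass, the latter at 1674 ± 451 and 1379 ± 319 CPM (SD, n = 3 each). Of 8 elongation factor genes 4 fell and 1 rose. Eef1a1, which delivers tRNA, fell from 9814 ± 189 to 7808 ± 109.7 CPM and Eef2, which moves the ribosome along, from 5332 ± 151 to 4519 ± 129 CPM (SD, n = 3 each). Eef2k, the kinase that inhibits Eef2, rose from 149.8 ± 7.01 to 184 ± 3.51 CPM.

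Of 37 initiation factor genes 6 fell and 0 rose (median -0.042); Eif1 (-0.33), Eif1ax (-0.25) and Eif3h (-0.19) led by p-value. Of 6 other mRNAs known for a TOP tract, 5 fell and 0 rose (median -0.20). They included Tpt1 (-0.46 ± 0.0603, SE), Hnrnpa1 (-0.23 ± 0.0279) and Vim, the intermediate filament vimentin (-0.73 ± 0.0547). Among 9 chaperones of ribosomal proteins, 2 rose and 1 fell, with a median of 0.058. Pdcd2l, which escorts Rps2, rose from 7.85 ± 0.181 to 12.2 ± 0.298 CPM, Heatr3, which imports Rpl5 and Rpl11, rose by 0.16 ± 0.0410 on the log2 scale, and Aamp fell by 0.12. The calls of Heatr3 and Aamp were lost in DESeq2 (adjusted p = 0.078 and 0.16) and in several other fits. Among 14 regulators of ribosomal protein synthesis 2 rose and 2 fell (median 0.012). Myc, a transcription factor that activates ribosome genes, rose from 104 ± 3.17 to 167 ± 3.58 CPM while its relative Mycn fell from 15.5 ± 1.22 to 8.15 ± 0.695 CPM. Rptor, the mTORC1 scaffold, rose by 0.21 ± 0.0447 and Maf1, a repressor of RNA polymerase III, fell by 0.19.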

How the data were processed

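Counts and FPKM of 6 libraries were used as deposited. Poly-A RNA was made into stranded paired-end libraries for Illumina sequencing, per the labels' protocols. CASAVA 1.8, HISAT2, StringTie, edgeR and GRCm38 are named without roles in the submitters' processing notes. Per the file headers, the authors deposited raw whole-number counts. The deposited FPKM values equal the count over a gene length and the library total, within 1% for 99.9% of the 10713 genes averaging 100 counts or more. Every row names a gene.

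The test was run in edgeR 4.0.16 under R 4.3.3 (filterByExpr, TMM, quasi-likelihood F-test without covariates, Benjamini-Hochberg over 15533 genes, which hold 99.8% of counts). CPM are on the TMM scale, and the SE is the log2 fold change over the square root of F. Libraries within a group differed by 1.74 to 1.99 times sampling noise (median of squared differences), so none was treated as a duplicate. The procedure was tested on simulated data with a dispersion below the common dispersion of these data. That test therefore does not show how many true changes are found here. Named genes were all paralogs, the 6 smallest p-values per subunit, the 3 highest and 3 lowest FPKM per subunit, the stalk genes, Rpsa and up to 3 or 4 genes a list. The members and lists were chosen with earlier results of these data known. Alternatives covered scaling, filters, DESeq2 1.42.0, limma 3.58.1 (voom, and trend on log2 FPKM), length and GC offsets, the replicate block and each library left out; the GC and length offset and the restriction to unique sequence were chosen after seeing the data. Protein sequences were not used here, and a few genes that the naming rule picks are not reported here.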

Additional observations from a re-analysis of the deposited data

How the results depend on the processing

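Across 19 other fits, 48 to 61 of the ribosomal protein genes were called lower, against 61 as reported, and 45 of them were called lower in every fit. Leaving out each library gave 53 to 60 lower calls and 0 to 1 higher, the 1 being Rpl26 without carnosine replicate 2, with medians from -0.30 to -0.26 (large subunit) and -0.29 to -0.26 (small subunit). The medians were -0.22 and -0.21 with total count scaling, -0.22 and -0.21 with limma-trend on log2(FPKM + 1), and -0.22 and -0.21 on log2(FPKM + 0.1), neither of which scales for composition beyond the library total. Restricted to the 26 tested genes with at least 70% unique sequence, 22 were lower, by construction fewer. The difference in the share of counts, -0.39 percentage points, was -0.45 among protein-coding genes and -0.43 without mitochondrial genes. Both of these shares have a smaller denominator. The ratio of the carnosine to the saline mean was 0.868 for all counts, 0.864 among protein-coding genes and 0.863 without mitochondrial genes. In these fits 6 of the genes turned sign, 0 of them called as reported, and so did 1 paralog ratio; the cause was not tested. The ranges are over the libraries left out. Rpl36a was at 0.018 with total counts, 0.021 and 0.025 on the FPKM scales (pseudocounts 1 and 0.1), 0.030 without saline replicate 2 and 0.022 without carnosine replicate 2 (range -0.12 to 0.030). Rps13 was at 0.012 with total counts, 0.0021 and 0.0012 on the FPKM scales, 0.0014 without saline replicate 3 and 0.050 without carnosine replicate 3 (range -0.15 to 0.050). Rpl27 was at 0.012 with total counts, 0.014 and 0.015 on the FPKM scales, 0.0012 with the GC and length offset and 0.018 without saline replicate 2. Rpl10 was at 0.041 without saline replicate 2 and 0.0031 without carnosine replicate 2, and Rpl26 at -0.030 and -0.0037 without carnosine replicates 1 and 3. Rps23 was at 0.038 without saline replicate 2 (range -0.23 to 0.038), and the Rpl22l1 to Rpl22 log2 ratio differed by -0.058 without it (range -0.058 to 0.20). Same-numbered libraries did not deviate together (correlations 0.0079, 0.027 and 0.021), so the numbers were not taken as pairs, and with the replicate block 56 genes were called lower and 0 higher. Some genes with low counts, namely Rps13, Rps23, Rps27 and Rpl9, all under 25 CPM, did not pass, although Rpl37a, at 11.7 to 16.9 CPM, did. Rpl22, Rpl24 and Rpl26 did not pass either, with saline means of 222, 248 and 204 CPM. The part of depth in the missed calls was not tested.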
